A study of Homo sapiens with 12 samples.

Results

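The MYC, MAX and MXD network was described here through 10 genes, MYC, MAX, MXI1, MXD1, MXD3, MXD4, MNT, MLX, MLXIP and MGA, taken by their symbols from the 60666 genes listed in each count file. All 10 passed the filter on low counts that left 14274 genes for testing. The samples were Huh7 cells, an established human hepatocellular carcinoma line, treated with 25 µM Molidustat, which blocks prolyl hydroxylases and so stabilizes HIF-α proteins, or with DMSO alone, its solvent. The 4 groups were DMSO for 24 h, Molidustat for 24 h, DMSO for 48 h and Molidustat for 48 h, with 3 libraries each and no gene edited or silenced in any of them. The methods describe the replicates as biological, while the series record names RNA extractions in triplicate. Nothing further ties each library to a culture of its own, so p-values measure the spread between these libraries, which may be technical in part.

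MYC is a transcription factor that drives ribosome production, nucleotide synthesis and cell growth, and it binds E-boxes in DNA as a heterodimer with MAX. The MXD proteins, MXI1 among them, and MNT compete with MYC for MAX and recruit SIN3 and histone deacetylases to repress the same sites, while MGA brings MAX into a Polycomb complex. MLX is the parallel partner that pairs with the glucose-sensing Mondo factor MLXIP and with several MXD proteins. In hypoxic cells, MXI1 is known as a gene induced by HIFs, and its product as an antagonist of MYC.

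MXI1 had the largest log2 fold change of the members at 24 h, so the sequences in front of its 3 RefSeq start sites are shown first. MXI1 lies on chromosome 10 from 110207605 to 110287365 on the plus strand (GRCh38), and the windows below run from 250 bases before to 50 bases after each start (RefSeq, GRCh38.p14). Capitals mark ACGTG or GCGTG on either strand, the core letters of the element that HIFs bind, so that CACGT and CACGC in capitals are the same letters read on the opposite strand.
MXI1 start 1, chr10:110207355-110207654, plus strand: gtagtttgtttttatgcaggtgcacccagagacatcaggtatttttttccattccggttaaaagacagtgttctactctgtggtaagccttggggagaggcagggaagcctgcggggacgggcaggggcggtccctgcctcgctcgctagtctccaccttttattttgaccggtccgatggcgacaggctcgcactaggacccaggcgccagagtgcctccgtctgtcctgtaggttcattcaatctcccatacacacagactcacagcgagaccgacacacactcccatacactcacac
MXI1 start 2, chr10:110209981-110210280, plus strand: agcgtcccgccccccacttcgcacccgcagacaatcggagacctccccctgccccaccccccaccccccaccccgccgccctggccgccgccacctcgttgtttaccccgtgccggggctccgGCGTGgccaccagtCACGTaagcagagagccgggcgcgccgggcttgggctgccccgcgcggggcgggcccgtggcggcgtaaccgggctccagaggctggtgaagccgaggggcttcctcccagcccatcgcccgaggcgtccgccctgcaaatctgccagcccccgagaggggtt
MXI1 start 3, chr10:110225746-110226045, plus strand: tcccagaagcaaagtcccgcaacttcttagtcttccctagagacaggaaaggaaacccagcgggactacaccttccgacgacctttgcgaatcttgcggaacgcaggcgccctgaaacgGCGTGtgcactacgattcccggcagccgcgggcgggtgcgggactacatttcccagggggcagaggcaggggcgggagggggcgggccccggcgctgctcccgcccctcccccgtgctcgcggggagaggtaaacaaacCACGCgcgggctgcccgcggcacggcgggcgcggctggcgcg
The window of start 1 held neither sequence. That of start 2, 2626 bases downstream, held GCGTG from -127 to -123 and ACGTG on the opposite strand from -113 to -109, counted from the start site with its first transcribed base as 1. At start 3, 18391 bases downstream of start 1, GCGTG stood from -131 to -127 and, on the opposite strand, from 9 to 13. ACGTG was found in 21.4% of the 35116 RefSeq promoter windows of this length, GCGTG in 36.5% and either in 48.4%. Windows were held for 9 of the members (14 windows, none for MYC), and 11 of the 14 held one of these letters. The full E-box CACGTG, which contains ACGTG, occurred in 3 of the 14 windows, those of MXD4, MNT and MLX, and in 7.26% of all windows. These matches describe letters only, and the 3′ counts do not tell which start site was used.

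Between 2312396 and 9179389 counts fell on genes in 11 libraries, and 1499273 in DMSO 48 h replicate 2. This library stood apart from the others, with 50.4% of its listed reads on no annotated feature against 17.1 to 25.6% elsewhere. Its log2 levels correlated with those of the other libraries at 0.707 to 0.782, against 0.855 to 0.956 among the other 11. Fold changes at 48 h are therefore given with and without it. Levels are counts-per-million (CPM) after TMM scaling of library size. They are shares of a library, so that less of a transcript per cell and more of other RNA cannot be told apart. The TMM factor was 0.629 for DMSO 48 h replicate 2 and 1.01 to 1.08 for the other libraries. The liver secretory genes albumin (ALB, 1264 to 5157 CPM) and alpha-fetoprotein (AFP, 3908 to 10323 CPM) were detected in every library. Of the markers of other cell types, the leukocyte gene CD68 (up to 6.81 CPM) and the fibroblast gene COL1A2 (up to 6.07 CPM) had counts in all 12 libraries, the endothelial gene PECAM1 (up to 6.45 CPM) in 8 and the leukocyte gene PTPRC in 2. The T cell gene CD3E and the endothelial gene VWF had none. The summed level of 12 hepatocyte and hepatoma markers, AFP the most abundant, was higher with Molidustat without overlap, from 13411 to 16310 CPM in DMSO against 19866 to 24063 CPM in Molidustat at 24 h. The sum at 48 h was 9683 to 18003 against 25836 to 31067 CPM. The sum of 5 fibroblast markers was 2.13 to 6.2 against 7.72 to 12.6 CPM at 48 h, also without overlap, and overlapped at 24 h, as did those of the leukocyte and endothelial markers at both times. The part of these shifts in the fold changes was not tested.

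**Figure D1:**
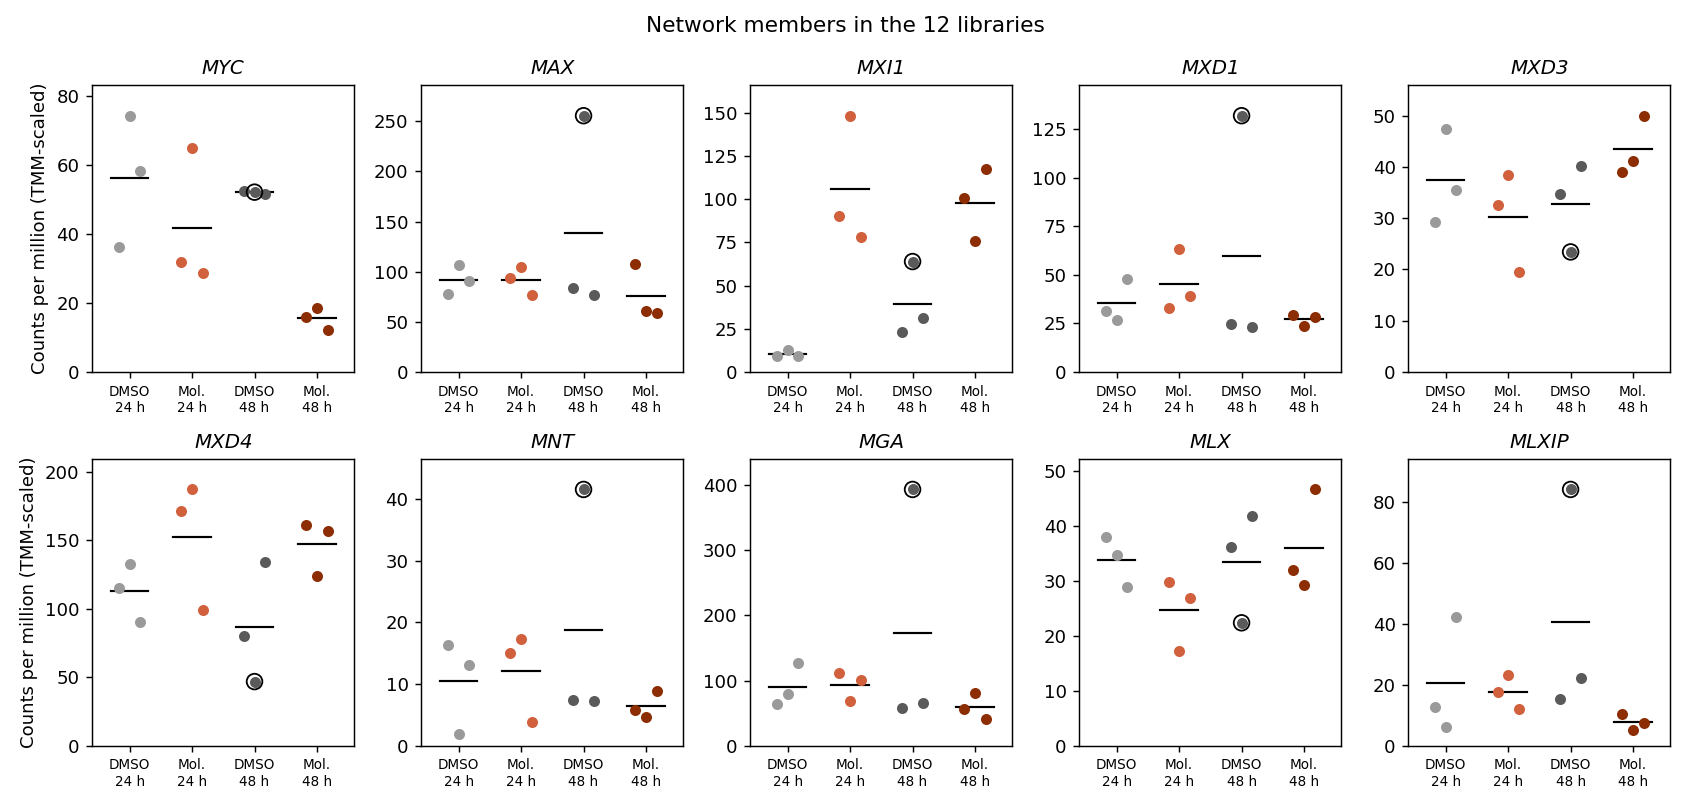
Level of each member in every library, in TMM-scaled counts-per-million (vertical axes, from 0, 1 scale per gene), by treatment and time (Mol., Molidustat). Points are libraries, bars the group means, and the ringed point is DMSO 48 h replicate 2, which was the highest of the 12 libraries for MAX, MXD1, MNT, MGA and MLXIP. MXI1 libraries with Molidustat lie above the DMSO libraries of the same time, and MYC libraries with Molidustat for 48 h lie below all others.

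MXI1 rose about 10-fold in its group mean after 24 h of Molidustat and was the 1 member called at that time. In DMSO it stood at 9.19, 12.7 and 9.09 CPM at 24 h, and in Molidustat at 90.3, 148 and 78.1 CPM. The groups did not overlap, and the lowest treated library was above the highest control library. The group means were 10.3 ± 2.06 CPM (SD, n = 3) and 106 ± 37.5 CPM (SD, n = 3). The log2 fold change was 3.36 (SE 0.43), with an adjusted p of 0.00112 (edgeR, quasi-likelihood F test, Benjamini-Hochberg). A gene was called when this adjusted p was under 0.05 and the log2 fold change beyond 1 in size. At 24 h, 0.231% of the 14274 genes tested were called higher and 0% lower. In the fit without DMSO 48 h replicate 2, 111 of 15253 genes were called higher and 5 lower at 24 h. MXI1 stood at 3.39 in that fit (edgeR adjusted p = 1.17e-05). By non-overlap of the libraries alone, 7.26% of genes had every Molidustat library above every DMSO library and 5.02% had every one below, against 1 and 0 of the 10 members.

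At 48 h the distance between the MXI1 groups was smaller. The DMSO libraries held 23.2, 63.9 and 31.3 CPM and the Molidustat libraries 101, 75.9 and 117 CPM. These groups did not overlap either, but the highest control, replicate 2, was nearest to the lowest treated library. Group means were 39.5 ± 21.5 CPM (SD, n = 3) in DMSO and 98.0 ± 20.8 CPM (SD, n = 3) in Molidustat. The log2 fold change was 1.36 (SE 0.40), and the adjusted p of 0.203 from edgeR was not past the threshold. Without DMSO 48 h replicate 2 it was 1.83 with an edgeR adjusted p of 0.0225, which was a call. In that fit of 11 libraries, 0.315% of 15253 genes were called higher at 48 h. In the fit of 12 libraries, 0.21% were called higher and 0.021% lower.

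Ordered by level, MXI1 was lowest in DMSO at 24 h, then DMSO at 48 h, Molidustat at 48 h and Molidustat at 24 h. The Molidustat groups overlapped and differed by -0.11 (SE 0.38) on the log2 scale between 48 h and 24 h. DMSO libraries at 48 h lay above all those at 24 h, with a log2 difference of 1.89 (SE 0.42) that edgeR did not call (adjusted p = 0.541) and DESeq2 called at 1.95 (adjusted p = 0.0199), where it called 0.252% of genes higher. Without replicate 2 of the 48 h controls, this difference was 1.44 in edgeR and 1.40 in DESeq2 (adjusted p = 0.059), and neither was a call. Of all genes tested, 0.00701% were called between the times in DMSO by edgeR, and 5.75% had all 48 h DMSO libraries above all 24 h ones. The change of the Molidustat response between 24 h and 48 h, tested as an interaction, was -1.999 (SE 0.56) on the log2 scale for MXI1 (adjusted p = 0.728 by edgeR). No member was called for this interaction by edgeR or DESeq2, and 0% of all genes were called by edgeR. At an unadjusted p under 0.05, 3 members (MYC, MXI1 and MLXIP) had a smaller log2 value at 48 h than at 24 h by this test, as did 5.6% of all genes. Without DMSO 48 h replicate 2 the number of members was 2, and the share of all genes 1.95%.

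MYC, on chromosome 8 from 127735434 to 127742951 (plus strand), overlapped between treatments at 24 h and separated at 48 h. At 24 h its levels were 36.3, 74.3 and 58.3 CPM in DMSO and 31.9, 64.9 and 28.8 CPM in Molidustat. These ranges overlapped, and the log2 fold change was -0.42 (SE 0.37) with an edgeR adjusted p of 0.999. It was -0.89 without Molidustat 24 h replicate 2 and -0.17 without DMSO 24 h replicate 2. At 48 h the DMSO libraries were tight on the TMM scale, at 52.6, 52.2 and 51.7 CPM, and the Molidustat libraries held 16.0, 18.4 and 12.2 CPM. The highest treated library was thus well below the lowest control, and the means were 52.1 ± 0.463 CPM and 15.5 ± 3.14 CPM (SD, n = 3 each). The log2 fold change was -1.75 (SE 0.39). With an adjusted p of 0.0982 MYC was not called by edgeR, while DESeq2 called it at -1.77 (adjusted p = 0.00411), when it called 1.27% of 13889 genes lower. On the TMM scale DMSO 48 h replicate 2 did not stand apart for MYC, and without it the edgeR value was -1.77 (adjusted p = 0.0664). By raw counts, it held 49 of 1499273 on MYC, a smaller share than 388 of 6856097 and 500 of 9179389 in replicates 1 and 3. The tight spread of the DMSO libraries thus depended on the TMM scaling. With total counts instead, the log2 fold change was -1.60 (SE 0.43, adjusted p = 0.185 by edgeR).

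From the lowest level up, MYC ran from Molidustat at 48 h through Molidustat at 24 h and DMSO at 48 h to DMSO at 24 h. Neighbours in this order overlapped except for the Molidustat groups. In DMSO, MYC differed by -0.11 (SE 0.37) on the log2 scale between 48 h and 24 h. In Molidustat, the 48 h libraries lay below the 24 h libraries, by -1.44 on the log2 scale (SE 0.39), which was not called (edgeR adjusted p = 0.953). Of all genes, 6.79% showed such a separation and 0% were called between the times in Molidustat by edgeR. Without DMSO 48 h replicate 2, MYC stood at -1.46 in edgeR (adjusted p = 0.229). DESeq2 without that library, added after seeing the data, called MYC lower at -1.44 (adjusted p = 0.0357). In that fit 46 of all genes were called higher and 48 lower. For the change of the Molidustat response between the times, MYC had a log2 value of -1.34 (SE 0.54, adjusted p = 0.728 by edgeR).

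The counts of MXI1 divided by those of MYC in the same library, which no scaling of the library alters, moved between groups without overlap at either time. The ratio was 0.253, 0.171 and 0.156 in DMSO at 24 h and 2.83, 2.28 and 2.71 in Molidustat. At 48 h it was 0.441, 1.22 and 0.606 in DMSO and 6.31, 4.12 and 9.60 in Molidustat. The geometric mean ratio was 13.7-fold higher with Molidustat at 24 h and 9.14-fold higher at 48 h, or 12.2-fold without DMSO 48 h replicate 2. Since 3′ counts of separate genes are not on a common scale, the ratio does not give the number of MXI1 per MYC transcripts. It combines both genes and is given as a description with no test. Over the 12 libraries the log2 levels of both genes had a Pearson r of -0.53, with treatment and time shared by the points.

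**Figure D2:**
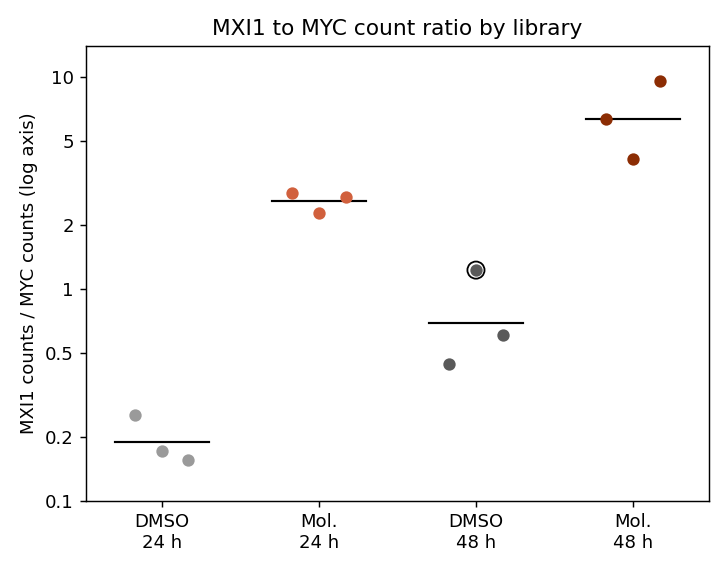
Counts of MXI1 divided by counts of MYC in each library (vertical log axis, no unit) by treatment and time (Mol., Molidustat). Points are libraries, bars geometric means of 3, and the ringed point is DMSO 48 h replicate 2. The Molidustat libraries lie between 2.28 and 2.83 at 24 h and between 4.12 and 9.60 at 48 h, above the DMSO libraries of either time.

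MAX, the shared partner of MYC, the MXD proteins, MNT and MGA, lies on chromosome 14 from 65006174 to 65102695 (minus strand). Its levels in DMSO at 24 h were 77.6, 106 and 90.3 CPM and in Molidustat 93.9, 105 and 77.1 CPM. The ranges coincided (log2 fold change 0.01, SE 0.42, edgeR adjusted p = 0.999). At 48 h the DMSO libraries held 83.4, 256 and 76.4 CPM and the Molidustat libraries 107, 60.5 and 58.8 CPM. The high value was DMSO 48 h replicate 2, and the remaining libraries overlapped. A log2 fold change of -0.85 (SE 0.43, edgeR adjusted p = 0.418) became -0.09 without that library. The span of MAX overlaps that of FNTB on the opposite strand, and the strand setting of the counts is not given in the sources used here. Whether some of the MAX counts came from FNTB transcripts was not tested.

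The other MXD genes, whose products repress through MAX like MXI1, were not called at either time by edgeR or DESeq2. MXD4, on chromosome 4 from 2247432 to 2262109 (minus strand), held 115, 133 and 90.5 CPM in DMSO and 171, 187 and 99.4 CPM in Molidustat at 24 h. At 48 h it held 80.1, 46.8 and 134 CPM in DMSO and 161, 124 and 157 CPM in Molidustat. The groups overlapped at both times, and the log2 fold changes were 0.44 (SE 0.37) at 24 h and 0.74 (SE 0.37) at 48 h, the latter 0.45 without DMSO 48 h replicate 2 and 1.195 without DMSO 48 h replicate 3. MXD3, on chromosome 5 from 177301461 to 177312757 (minus strand), ranged from 19.4 to 49.98 CPM over the 12 libraries. Its log2 fold changes were -0.30 (SE 0.35) and 0.38 (SE 0.35), within the overlap of the groups, and the latter was 0.20 without DMSO 48 h replicate 2. It overlaps RAB24 on its own strand and PRELID1 on the other, which together had 39671 counts against 2134 for MXD3, so its counts are uncertain. MXD1, on chromosome 2 from 69897688 to 69942945 (plus strand), held 31.2, 27.0 and 47.9 CPM in DMSO and 32.98, 63.5 and 39.0 CPM in Molidustat at 24 h. At 48 h it held 24.7, 132 and 23.0 CPM in DMSO and 29.4, 23.6 and 28.2 CPM in Molidustat, so that 1 control library was far above all else. The log2 fold change was 0.35 (SE 0.55) at 24 h and -1.08 (SE 0.56) at 48 h, and the sign turned to 0.17 without that library. MXD1 overlaps SNRNP27 on the same strand.

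MNT, the broadly expressed MAX-binding repressor on chromosome 17 from 2384073 to 2401104 (minus strand), was the least covered member, with 5 to 142 counts per library. It held 16.3, 1.93 and 13.01 CPM in DMSO and 15.1, 17.2 and 3.85 CPM in Molidustat at 24 h, a log2 fold change of 0.19 (SE 0.79). At 48 h the values were 7.46, 41.5 and 7.23 CPM against 5.84, 4.72 and 8.83 CPM. Apart from replicate 2 of the controls these overlapped, and the log2 fold change of -1.41 (SE 0.83, edgeR adjusted p = 0.506) became -0.18 without it. MGA, which joins MAX to the Polycomb complex PRC1.6, lies on chromosome 15 from 41621134 to 41773081 (plus strand). It held 63.8, 79.7 and 127 CPM in DMSO and 111, 68.1 and 101 CPM in Molidustat at 24 h, for a log2 fold change of 0.04 (SE 0.58). At 48 h the DMSO libraries held 58.3, 393 and 65.3 CPM and the Molidustat libraries 55.7, 80.6 and 41.5 CPM. Its log2 fold change of -1.52 (SE 0.60, edgeR adjusted p = 0.278) fell to -0.08 without DMSO 48 h replicate 2, so the difference rested on that library.

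Among the MLX branch, MLX itself overlapped between groups at both times and MLXIP separated at 48 h. MLX, on chromosome 17 from 42567072 to 42573239 (plus strand), ranged from 17.2 to 46.6 CPM over the 12 libraries. Its log2 fold changes were -0.46 (SE 0.36) at 24 h and 0.08 (SE 0.36) at 48 h, the latter -0.12 without DMSO 48 h replicate 2. MLX overlaps PSMC3IP on the opposite strand. MLXIP, also called MondoA, lies on chromosome 12 from 122078756 to 122147344 (plus strand) and overlaps no annotated gene. At 24 h it held 12.9, 6.16 and 42.3 CPM in DMSO and 17.6, 23.3 and 12.1 CPM in Molidustat, a log2 fold change of -0.22 (SE 0.67). At 48 h it held 15.5, 84.1 and 22.2 CPM in DMSO and 10.3, 5.15 and 7.52 CPM in Molidustat. Every treated library was below every control library at this time, with replicate 2 again the highest control. MLXIP had a log2 fold change of -2.32 (SE 0.72, edgeR adjusted p = 0.208) at 48 h, and DESeq2 called it at -2.43 (adjusted p = 0.0406). It was -1.29 (edgeR adjusted p = 0.757) without DMSO 48 h replicate 2.

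Counted together at 48 h, edgeR called 0 of the 10 members, against 0.21% of all genes higher and 0.021% lower. At 24 h it called 1, against 0.231% of all genes higher and 0% lower. DESeq2 called 2 members lower at 48 h, MYC and MLXIP, against 1.27% of 13889 genes. Its call of MLXIP was lost without DMSO 48 h replicate 2 (-1.26, adjusted p = 0.659). Molidustat libraries at 48 h lay above the DMSO libraries for 1 member (MXI1), and 9.96% of all genes tested did the same. They lay below for 2 (MYC and MLXIP), against 8.02% of all genes. At an unadjusted p under 0.05 by edgeR, 3 members were lower (MYC, MLXIP and MGA) and 1 higher (MXI1), against 8.81% and 4.53% of all genes. In the fit without DMSO 48 h replicate 2, 2 members were lower and 1 higher at that p, against 2.92% and 3.68% of all genes. The median log2 fold change of the members was -0.96, against 0.01 over all genes tested, and -0.09 without DMSO 48 h replicate 2. At 24 h the median was 0.03 for the members and 0.02 for all genes. What the features of DMSO 48 h replicate 2 contribute to these differences was not tested beyond leaving it out. The 24 h and 48 h comparisons with DMSO share no library, but their edgeR values come from 1 fit of all 12 libraries. The spread of each gene was estimated over all groups, so calls at 24 h also depended on the 48 h libraries. Without DMSO 48 h replicate 2, edgeR called 116 of all genes at 24 h, against 33. The comparisons between the times use the same libraries again.

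**Figure D3:**
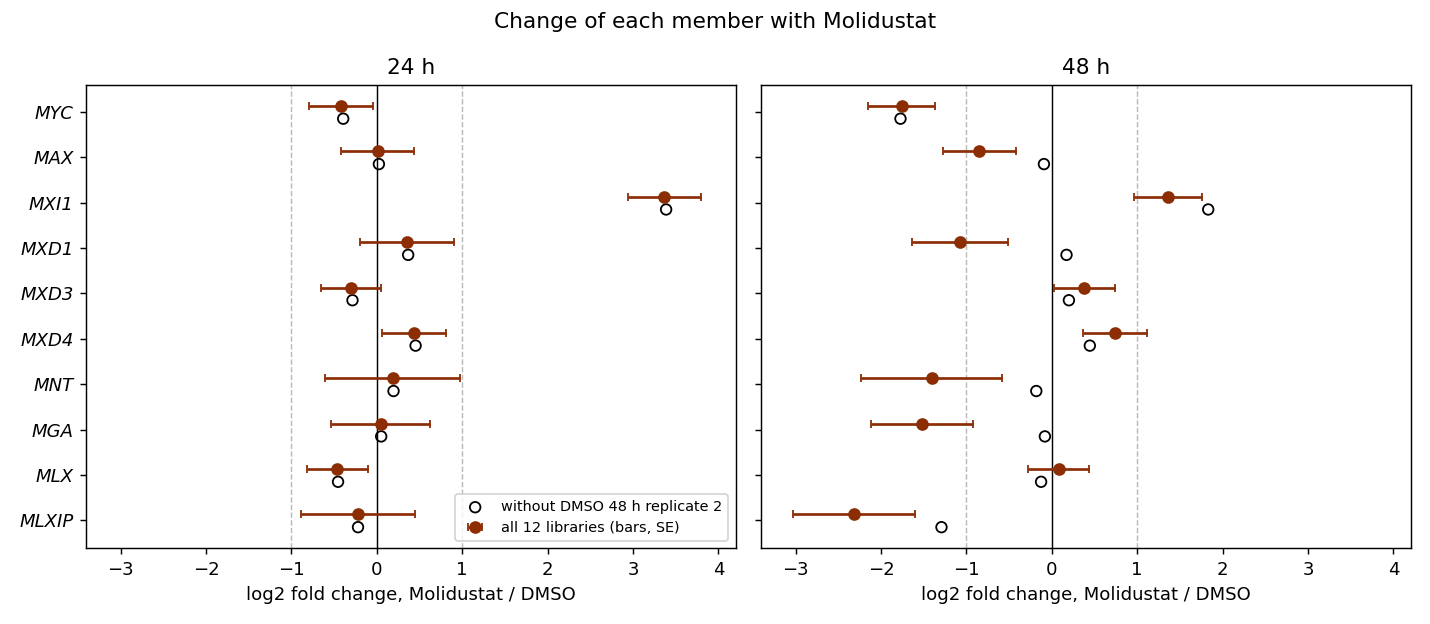
Log2 fold change of each member (horizontal axes) at 24 h (left) and 48 h (right). Filled points with bars are the edgeR estimates and standard errors from all 12 libraries, open circles the estimates without DMSO 48 h replicate 2, and dashed lines mark 1 and -1. At 48 h the open circles of MAX, MXD1, MNT and MGA lie near 0, while MYC stays at -1.77 and MXI1 moves to 1.83.

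The genes whose log2 levels followed MXI1 most closely over the 12 libraries were EPO (Pearson r 0.96), which encodes erythropoietin, PHKA2 (0.95), a subunit of phosphorylase kinase, LGSN (0.95), PGK1 (0.95), a glycolytic enzyme, and AK4 (0.94), a mitochondrial adenylate kinase. Those most like MYC were H2AC6 (0.90), a histone H2A gene, CTPS1 (0.90), which makes CTP, AEN (0.88), an exonuclease, PPP3CB (0.87), a calcineurin subunit, and MRTO4 (0.86), a ribosome assembly factor. These correlations describe the libraries, which share treatment and time.

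Of the genes that MYC is known to activate, chiefly nucleolar and ribosome assembly factors, 38 of 40 were tested. None was called by edgeR at either time, when it called 0% of all genes lower at 24 h and 0.021% at 48 h. At 24 h, 34 of the 38 had a negative log2 fold change, against 48.5% of all genes, and the median was -0.41 against 0.02 over all genes. At an unadjusted p under 0.05, 5 were lower and 0 higher at 24 h, against 1.52% and 3.73% of all genes. At 48 h, 29 were negative, against 49.6% of all genes, the median was -0.39 against 0.01 over all genes, and 9 were lower and 1 higher at an unadjusted p under 0.05, against 8.81% and 4.53% of all genes. Without DMSO 48 h replicate 2, 36 were negative, the median was -0.48, and 13 were lower and 0 higher at that p, against 2.92% and 3.68% of all genes. Molidustat libraries lay below the DMSO libraries for 9 of the 38 at 24 h and for 13 at 48 h, where 5.02% and 8.02% of all genes did so. DESeq2 called 0 at 24 h, when it called 129 of all genes higher and 12 lower. At 48 h it called 1 lower, RRP12, a ribosome export factor named here after its value was seen, against 1.27% of 13889 genes. CAD, the first enzyme of pyrimidine synthesis, had the lowest log2 fold change at 24 h, -1.95 (SE 0.85, adjusted p = 0.885 by edgeR), at a mean of 4.64 CPM over the 12 libraries. EIF4E, the cap-binding translation factor, had the lowest at 48 h, -2.35 (SE 0.67, edgeR adjusted p = 0.202), and -0.43 without DMSO 48 h replicate 2. EdgeR called EIF4E when DMSO 48 h replicate 1 or replicate 3 was left out instead, at -2.74 and -2.77. The highest values were 0.22 (SE 0.38) for GNL3, a nucleolar GTPase, at 24 h and 0.78 (SE 0.35) for FBL, the nucleolar methyltransferase fibrillarin, at 48 h, or 0.44 for FBL without DMSO 48 h replicate 2. The most abundant of the list were PTMA (1277 CPM on average) and NPM1 (1179 CPM).

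Genes that MYC is known to repress, cell cycle inhibitors and growth arrest genes among them, were all 10 tested and none was called by edgeR or DESeq2. Of all genes, edgeR called 0.231% higher and 0% lower at 24 h, and 0.21% and 0.021% at 48 h, so few calls would be seen in any list of 10. Their median log2 fold change was 0.16 at 24 h and 0.37 at 48 h, against 0.02 and 0.01 over all genes. GADD45B, a stress-induced growth arrest gene, was highest at both times, with 0.81 (SE 0.53) at 24 h and 1.603 (SE 0.54, unadjusted p = 0.0092, adjusted p = 0.23 by edgeR) at 48 h. Its groups did not overlap at 48 h, when 9.96% of all genes had every Molidustat library above every DMSO library. The lowest were CDKN1A at 24 h, at -2.01 (SE 1.19), and BTG2 at 48 h, at -0.88 (SE 0.84). GADD45B stood at 1.35 without DMSO 48 h replicate 2, BTG2 at -0.66 and the list median at 0.27.

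TXNIP, a classical target of MLX with the Mondo factors and an inhibitor of glucose uptake, was the gene called at both times among those of the lists around the MLX branch. It held 9.42, 9.24 and 7.85 CPM in DMSO at 24 h and 125, 125 and 177 CPM in Molidustat. At 48 h it held 23.6, 18.1 and 24.0 CPM in DMSO and 147, 145 and 120 CPM in Molidustat. The groups stood far apart at both times, with log2 fold changes of 4.01 (SE 0.32, adjusted p = 2.19e-05) and 2.63 (SE 0.30, adjusted p = 0.000941) by edgeR, the latter 2.51 without DMSO 48 h replicate 2. Of the 12 MLX and Mondo targets listed, 7 were tested, and the other 6 tested were not called. The list median was -0.09 at 24 h and 0.04 at 48 h, or 0.02 over 8 genes tested without that library. SLC2A4, a glucose transporter, was lowest at both times, with -1.08 (SE 0.70) and -1.70 (SE 0.70), the latter -0.14 without DMSO 48 h replicate 2. FASN and ELOVL6, enzymes of fatty acid synthesis, were the most abundant, at 129 and 111 CPM on average.

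The paralogs of the network were near or below the level of detection apart from MYCN. MYCN held 40.9, 43.5 and 59.7 CPM in DMSO and 45.9, 52.3 and 55.2 CPM in Molidustat at 24 h, with a log2 value of 0.09 (SE 0.30). At 48 h it held 61.0, 88.4 and 76.5 CPM in DMSO and 47.6, 30.5 and 40.4 CPM in Molidustat. The groups separated at 48 h, at a log2 fold change of -0.92 (SE 0.31, unadjusted p = 0.00855, adjusted p = 0.227 by edgeR), which is also smaller than the size needed for a call. It was -0.81 without DMSO 48 h replicate 2. MLXIPL, the liver Mondo factor ChREBP, did not exceed 3.57 CPM, and MYCL had counts in 2 libraries and was not tested.

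The proteins that serve MYC, the MXD family and MGA as cofactors were not called as transcripts by edgeR or DESeq2 at either time. EdgeR called 0.231% of all genes higher and 0% lower at 24 h, and 0.21% and 0.021% at 48 h. Of 13 coactivators of MYC, 7 had negative log2 fold changes at 24 h and 11 at 48 h (medians -0.14 and -0.27), and 10 at 48 h without DMSO 48 h replicate 2. The shares of all genes were 48.5%, 49.6% and 49.1%. Every Molidustat library lay below every DMSO library for 4 at 24 h (KAT2A, RUVBL1, EP300 and SMARCB1), against 5.02% of all genes, and for 2 at 48 h, BPTF among them, against 8.02%. KAT5 and KAT2A, the acetyltransferases, marked the ends at 24 h, with 0.54 (SE 0.47) and -0.82 (SE 0.51). RUVBL2 was highest at 48 h, at 0.17 (SE 0.30). Without DMSO 48 h replicate 2 it stood at 0.01 and the list median at -0.32. Among 10 corepressors of the MXD proteins and MNT with MIZ1, SAP30, a SIN3 subunit, was highest at both times, with 0.76 (SE 0.37) and 0.81 (SE 0.38, unadjusted p = 0.0473 by edgeR), or 0.82 without DMSO 48 h replicate 2. The lowest were HDAC1 at 24 h, at -0.44 (SE 0.41), and RBBP4 at 48 h, at -1.10 (SE 0.45) or -0.27 without DMSO 48 h replicate 2. The medians of this list were 0.12 and -0.16, the latter -0.10 without that library.

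In the PRC1.6 complex of MGA, 10 partners had a median of -0.15 at 24 h and of -0.04 at 48 h. Their ends were RYBP (0.15, SE 0.46) and PCGF6 (-0.73, SE 0.54) at 24 h, and L3MBTL2 (0.73, SE 0.51) and RNF2 (-1.08, SE 0.45) at 48 h. Without DMSO 48 h replicate 2, L3MBTL2 stood at 0.31, RNF2 at -0.29 and the list median at 0.05. Of 15 genes of MYC protein turnover, 14 were tested and their medians were -0.18 and -0.30. USP28, a deubiquitinase of the MYC ligase pathway, was highest at 24 h (0.94, SE 0.68, and 2.34 without DMSO 24 h replicate 3) and TRIM32 lowest (-0.81, SE 0.53). STUB1 was highest at 48 h (0.40, SE 0.39) and SKP2, the F-box protein, lowest (-1.57, SE 0.57). They stood at 0.03 and -0.14 without DMSO 48 h replicate 2, and the list median at -0.18.

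As a control of the treatment, 9 of 10 hypoxia genes were tested. Their list was also chosen with earlier results of these data known, so their direction is a description. The 9 had positive log2 fold changes at both times (medians 1.73 and 1.63). EdgeR called BNIP3, SLC2A1 and PDK1 higher at 24 h and BNIP3 at 48 h, against 0.231% and 0.21% of all genes. Without DMSO 48 h replicate 2, edgeR called 6 of 10 tested higher at 24 h and 1 at 48 h, against 111 and 48 of 15253 genes. SLC2A1 (edgeR adjusted p = 0.00298) and PDK1 (edgeR adjusted p = 0.000849) were among the 6. BNIP3, a mitophagy receptor, rose from 158 ± 49.0 to 1111 ± 129 CPM at 24 h and from 178 ± 26.9 to 1144 ± 52.0 CPM at 48 h (SD, n = 3 each). The log2 fold changes were 2.81 (SE 0.34, adjusted p = 0.000977) and 2.68 (SE 0.34, adjusted p = 0.00149) by edgeR, with no overlap of groups. BNIP3 stood at 2.57 at 48 h without DMSO 48 h replicate 2, and the list median, over 10 genes tested in that fit, at 1.62. PDK1, which limits pyruvate entry into mitochondria, had the highest log2 fold change at 24 h (3.604, SE 0.68), and SLC2A1, the glucose transporter GLUT1, stood at 1.98 (SE 0.36). When 1 library at a time was left out, SLC2A1 was called in 6 and PDK1 in 7 of the 12 fits. The call of SLC2A1 was lost without any of the DMSO 24 h libraries, Molidustat 24 h replicates 1 or 2 or Molidustat 48 h replicate 3 (log2 fold changes 1.81 to 2.21). That of PDK1 was lost without DMSO 24 h replicates 1 or 2, Molidustat 24 h replicates 1 or 2 or Molidustat 48 h replicate 2 (3.19 to 3.61). DESeq2 called 7 genes of this list higher at 24 h and 4 at 48 h, against 0.83% and 1.25% of all genes. VEGFA was lowest at 24 h (1.002, SE 0.29) and EGLN3 at 48 h (0.63, SE 1.004), the latter 1.71 without DMSO 48 h replicate 2.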

How the data were processed

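The authors prepared polyadenylated RNA with a 3′ kit, ran it on a NextSeq 500 instrument, mapped reads to GRCh38 by STAR 2.7.9a and counted them with HTSeq 0.11.2, per the study's methods. The deposited files hold raw counts for each gene as whole numbers. The annotation release, strand setting and use of molecular identifiers are not given in the sources used here. Reads on no feature, ambiguous or aligned to several places name no gene and were left out. Names and coordinates were taken from GENCODE release 44 and promoter windows from RefSeq.

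Counts of the 12 libraries were fitted at once with edgeR 4.0.16 in R 4.3.3 (filterByExpr with a minimum count of 10 and a minimum total of 15, TMM, quasi-likelihood test, Benjamini-Hochberg adjustment over 14274 genes). For a call, adjusted p had to be under 0.05 and the log2 fold change above 1 or below -1. The F statistic gave the standard errors. The fit was tested on simulated data. Alternatives were DESeq2 1.42.0, limma-voom 3.58.1 with quality weights, RLE factors, total counts, other filters, each pair of groups alone, a replicate block, libraries thinned to the smallest, no threshold on the fold change, each library left out and, added after seeing the data, DESeq2 without DMSO 48 h replicate 2. Every count column was used (0 left out). Replicates differed by more than sampling noise.

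Members and lists were chosen with earlier results of these data known. Named genes are the members and, of each list, those called, the 2 most abundant and the highest and lowest at each time. A result for 1 listed gene is not reported here. The 5 genes most like MXI1 and MYC were taken by Pearson correlation of log2 CPM (prior count 2). Figures were drawn with Python and matplotlib.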

Additional observations from a re-analysis of the deposited data

How the results depend on the processing

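MXI1 at 24 h was called under every alternative run, with a log2 fold change between 3.03 and 3.53 when 1 library was left out. TXNIP was called at both times in all 12 such fits. MYC at 48 h was called in 0 of the 12, with values from -1.90 to -1.60, and MXI1 at 48 h in 1 of them (1.11 to 1.83), the fit without DMSO 48 h replicate 2. MYC at 48 h was called by DESeq2 (-1.77), with no filter on low counts (-1.75), by limma-voom (-1.86) and by DESeq2 without DMSO 48 h replicate 2 (-1.73). MXI1 at 48 h was called with no filter (1.39), by limma-voom (1.84) and by DESeq2 without that library (1.88).

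The number of members called at 48 h was 2 with DESeq2, 4 with no filter, 2 with limma-voom, 2 with DESeq2 without DMSO 48 h replicate 2, and 0 to 1 with 1 library left out. Between the times in DMSO, MXI1 was the 1 member called with DESeq2 (35 of all genes higher and 8 lower) and with no filter (387 and 13). In Molidustat, MYC was the 1 member called, with DESeq2 without DMSO 48 h replicate 2 (46 and 48). Of all genes, 141 were called at 24 h by DESeq2, 106 with no filter, 15 with at least 10 counts in every library, 57 with each pair of groups fitted alone, 64 by limma-voom, 239 by DESeq2 without DMSO 48 h replicate 2 and 20 to 116 with 1 library left out, against 33. At 48 h these numbers were 350, 764, 15, 7, 278, 175 and 13 to 327, against 33. The 116 at 24 h came from the fit without DMSO 48 h replicate 2, and the 327 at 48 h from that without DMSO 48 h replicate 1. Total counts in place of TMM moved the median log2 fold change of all genes at 48 h from 0.01 to 0.13, when MXI1 stood at 1.64 and MYC at -1.60.

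With no filter, MLXIP (-2.26), MGA (-1.45), SKP2 (-1.50) and EIF4E (-2.27) were also called lower at 48 h. PDK1 at 24 h lost its call with RLE factors (3.61, adjusted p = 0.0529) and with the replicate block (3.56, adjusted p = 0.0977). SLC2A1 at 24 h lost it with total counts (1.93, adjusted p = 0.0889). BNIP3 at 48 h lost it with each pair of groups fitted alone (2.66, adjusted p = 0.0569). All were edgeR fits, and the main log2 fold changes were 3.604 for PDK1, 1.98 for SLC2A1 and 2.68 for BNIP3.

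Signs turned only where no call was made. MAX at 24 h was -0.036 with total counts, -0.0076 with the replicate block and -0.0043 by limma-voom, and MNT at 24 h was -0.026 with the block. By limma-voom, MXD1 at 48 h was 0.18, MLX at 48 h -0.033, MLXIP at 24 h 0.14, MXI1 between times in Molidustat 0.090 and MYC between times in DMSO 0.018. By DESeq2 without DMSO 48 h replicate 2, MXD1 was 0.22 and MLX -0.079 at 48 h. MLXIPL at 48 h was -0.61 with the block, -0.71 by limma-voom and -0.31 by DESeq2 without that library. With 1 library left out, signs turned at 24 h for MAX (-0.098 to 0.13), MNT (-0.29 to 0.64), MGA (-0.15 to 0.36), MLXIP (-0.65 to 0.86), MYCN (-0.015 to 0.26), MLXIPL (-0.96 to 0.045), GNL3 (-0.068 to 0.49), RYBP (-0.51 to 0.42), and at 48 h for MXD1 (-1.44 to 0.17), MLX (-0.16 to 0.27), MLXIPL (-3.03 to 1.02), EGLN3 (-0.039 to 1.71). The same held between times for MXI1 in Molidustat (-0.30 to 0.20) and MYC in DMSO (-0.37 to 0.12). Other values at 24 h that were not called also had wide ranges, for MYC (-0.89 to -0.17), MXD1 (0.027 to 0.62), MXD3 (-0.53 to -0.075), KAT5 (0.042 to 0.75), HDAC1 (-0.78 to -0.15), USP28 (0.51 to 2.34), TRIM32 (-1.13 to -0.43), PCGF6 (-1.07 to -0.42), GADD45B (0.28 to 1.17), CDKN1A (-3.32 to -1.43), SLC2A4 (-1.38 to -0.44). So did MXD4 (0.26 to 0.66), MLX (-0.62 to -0.26) and SAP30 (0.49 to 1.01) at 24 h. At 48 h, a library other than DMSO 48 h replicate 2 moved MXD4 (to 1.195), MLX (-0.16 to 0.27), RUVBL2 (to 0.28), L3MBTL2 (to 1.13), STUB1 (to 0.66), BTG2 (-1.73 to -0.36) and EGLN3 (to -0.039). The cause was not tested.

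Same-numbered libraries of the treatments correlated in their deviations at 0.025, -0.031 and 0.12 at 24 h and at -0.054, -0.0096 and 0.050 at 48 h, so the numbers were not taken as pairs. With the replicate block, 1 member was called at 24 h and 0 at 48 h, and 30 and 22 of all genes, and MXI1 at 24 h was 3.32. Using the 250 bases before each start alone, 10 of the 14 member windows and 43.2% of all windows held ACGTG or GCGTG. MNT, with as few as 5 counts in a library, and DMSO 48 h replicate 2, with the fewest counts, set the limits of depth.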
